A study of Mus musculus with 4 samples.

Results

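The genes described here are 32 cell cycle genes, taken by symbol from the 53647 genes of the count tables: 21 mitotic genes, 10 genes of S phase and Stmn1, which was kept apart from both lists. All 32 were found. They were followed in single cells from the spinal cord of aged C57BL/6J mice, 28 days after spinal cord injury, in a 2 mm stretch that held the lesion. One group received IgG, the control antibody, and the other anti-CD8, an antibody to a surface protein of cytotoxic T cells. Both groups were injured and aged, so the labels set them apart by the antibody alone. With 2 libraries a group, other differences between the libraries cannot be told apart from the antibody. Each group had 2 libraries, labelled as biological replicates, and how many mice went into a library is not given in the sources used here. p-values therefore measure the spread between 2 libraries a group.

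Cell division runs through a fixed order of gene programmes. In S phase a cell copies its DNA: the Mcm helicase opens the strands, Pcna clamps the polymerases to them, Tyms, Tk1 and Rrm2 supply nucleotides, and new histones such as the linker histone H1f5 package the copy. Later the cyclins Ccna2, Ccnb1 and Ccnb2 with the kinase Cdk1 drive mitosis, in which Aurka, Aurkb, Birc5, Tpx2, Plk1 and the motors Kif11 and Kif20a build and run the spindle, Bub1 and Bub1b hold the checkpoint, and Cdc20 with Ube2c starts the exit by marking proteins for destruction. Mki67 coats mitotic chromosomes, Top2a untangles them, and Stmn1 loosens microtubules. In the injured cord, microglia are known to divide, while neurons have left the cycle.

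The promoters of these genes are shown because the homology region described next was found more often among the mitotic than among the S-phase members, a count that was not tested. Mitotic promoters are known for a cell cycle homology region (TTTGAA or TTCGAA) near a CCAAT box, and S-phase promoters for E2F motifs. RefSeq promoter entries (GRCm38.p6, which is not the build of the count tables) were matched for 26 of the 32 genes; Ccna2, Tpx2, Aurkb, Kif20a, Mcm4 and Stmn1 had no entry. The 160 bases upstream of the start are printed 5′ to 3′ for 4 mitotic genes and then 4 S-phase genes, in lower case, with matches on either strand in capitals. Besides those of the homology region, the letters searched were CCAAT and, for E2F, TTTCGCG or TTTGGCG or TTTCCCG and also TTTGCCG; overlapping matches were counted.
Top2a, chr11:99024190-99024349, minus strand: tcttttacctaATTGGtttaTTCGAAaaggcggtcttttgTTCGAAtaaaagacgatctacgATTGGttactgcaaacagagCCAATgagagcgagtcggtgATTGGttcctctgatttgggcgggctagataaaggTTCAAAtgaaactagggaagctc
Cdk1, chr10:69352913-69353072, minus strand: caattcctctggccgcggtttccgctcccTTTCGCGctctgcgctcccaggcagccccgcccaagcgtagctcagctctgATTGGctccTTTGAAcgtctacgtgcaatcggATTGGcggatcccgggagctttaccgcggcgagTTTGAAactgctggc
Ube2c, chr2:164769769-164769928, plus strand: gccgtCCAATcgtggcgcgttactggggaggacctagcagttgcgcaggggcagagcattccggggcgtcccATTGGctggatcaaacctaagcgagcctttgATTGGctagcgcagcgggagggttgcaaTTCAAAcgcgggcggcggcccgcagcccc
Kif11, chr19:37376222-37376381, plus strand: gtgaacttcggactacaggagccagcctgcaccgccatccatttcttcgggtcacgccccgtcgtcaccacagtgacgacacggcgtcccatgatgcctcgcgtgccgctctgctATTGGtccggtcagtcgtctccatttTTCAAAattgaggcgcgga
Pcna, chr2:132253181-132253340, minus strand: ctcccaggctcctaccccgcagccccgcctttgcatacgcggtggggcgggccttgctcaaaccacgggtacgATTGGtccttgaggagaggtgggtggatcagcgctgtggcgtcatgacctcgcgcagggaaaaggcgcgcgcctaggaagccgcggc
Mcm5, chr8:75109349-75109508, plus strand: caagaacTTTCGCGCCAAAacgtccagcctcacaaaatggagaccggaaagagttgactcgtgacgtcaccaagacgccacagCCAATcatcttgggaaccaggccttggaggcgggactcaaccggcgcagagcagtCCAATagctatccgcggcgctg
Mcm6, chr1:128359706-128359865, minus strand: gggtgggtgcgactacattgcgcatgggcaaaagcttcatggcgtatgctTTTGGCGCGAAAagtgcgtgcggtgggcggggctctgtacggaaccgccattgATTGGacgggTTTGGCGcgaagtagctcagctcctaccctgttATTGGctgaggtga
H1f5, chr13:21780626-21780785, minus strand: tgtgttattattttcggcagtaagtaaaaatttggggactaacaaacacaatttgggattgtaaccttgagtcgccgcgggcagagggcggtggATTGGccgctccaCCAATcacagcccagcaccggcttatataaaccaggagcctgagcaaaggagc

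In Top2a, Cdk1, Ube2c and Kif11 the homology region nearest to the start lay 23, 15, 29 and 19 bases upstream of it, and the nearest CCAAT box 58, 48, 57 and 45 bases upstream. Over the whole 300-base window, from 250 bases before to 50 after the start, 14 of 17 mitotic promoters (82.4%) held a homology region match, against 2 of 9 S-phase promoters (22.2%) and 19.2% of all 32851 mouse promoters. All 14 also held a CCAAT box, a combination found in 7.52% of all promoters. CCAAT alone was in 15 of 17 mitotic (88.2%) and 7 of 9 S-phase promoters (77.8%), against 37.4% of all. An E2F match was in 3 of 17 (17.6%) and 3 of 9 (33.3%), against 6.70% of all. The matches are letters in a window, and nothing about binding was measured in these libraries.

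The 4 libraries held 29956 cell barcodes with 152457679 to 170539226 counted molecules (UMIs) per library. After filters and the removal of 332 to 562 likely doublets per library, 27695 cells were kept, with a median of 17284 to 21950.5 UMIs per cell. Without the cell cycle genes, they grouped into 29 clusters. By markers, 13198 cells were microglia-like, 4350 Spp1-high myeloid-like, 1738 T cell-like, 1678 monocyte/macrophage-like, 1672 endothelial-like, 783 ependymal-like and 524 neuron-like. Cluster 10 (1087 cells, led by Il23a, Areg and Cxcl2) and cluster 11 (1078 shallow cells) were left unnamed. The names were rebuilt here from marker genes and are used below without "-like". In T cells the 13 T-cell markers summed to 7144 to 7476 CPM (UMIs of a gene scaled to a common library total), and microglial markers to 361 and 140 in the IgG and 260 and 248 in the anti-CD8 libraries. Cd8a, the gene of the antibody's target, measured 332 and 243 CPM in T cells of the IgG libraries and 175 and 99.2 in those of the anti-CD8 libraries.

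Cells that carried mitotic genes together were rare, 1.24% of all cells, and among the classes with over 1000 cells their share was highest in T cells and cluster 10. Each cell was first thinned at random to 2000 UMIs so that shallow and deep cells could be compared, and counted when it still held at least 2 different mitotic genes. Such cells are called dividing below for short; the word stands for this rule, and division itself was not measured. In all, 328 of 26521 cells did so: 1.20% and 1.32% in the IgG libraries and 1.20% and 1.22% in the anti-CD8 libraries. With at least 3 different genes the count was 179 cells, 0.678% and 0.778% against 0.609% and 0.653%. Under the first rule the group means, 1.26 ± 0.0844% and 1.21 ± 0.0137% (SD, n = 2), differed by less than the IgG spread. Under the second they were 0.728 ± 0.0701% and 0.631 ± 0.0308% (SD, n = 2), with both IgG libraries above both anti-CD8 libraries and the exact permutation p at its floor of 0.333. Thinning left out 212, 246, 256 and 460 cells below 2000 UMIs, in the order IgG replicates 1 and 2, anti-CD8 replicates 1 and 2, which is the order of all values below.

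Microglia held the most dividing cells by number: 151 of 13042 (1.16%), at 1.03%, 1.30%, 1.08% and 1.24% of the 4 libraries. The exact binomial 95% intervals, which cover counting error only, ran from 0.703% to 1.45% in the first and from 0.905% to 1.80% in the second library. IgG and anti-CD8 means were the same to 2 decimals, 1.16 ± 0.191% and 1.16 ± 0.115% (SD, n = 2). Of the 151 cells, 59 held exactly 2 mitotic genes. With at least 3 the share was 0.642%, 0.889%, 0.540% and 0.783%, and again the groups overlapped. Pooled over libraries, 2.06% of cluster 8 held at least 3 mitotic genes, against 0.182% to 1.03% of the other 7 microglial clusters. By library the share in cluster 8 was 1.09%, 3.72%, 1.15% and 2.69%, and it was the highest only in the second replicate of each group: clusters 9 (1.56%) and 4 (1.42%) were higher in IgG replicate 1 and cluster 15 (1.79%) in anti-CD8 replicate 1. Ckap2l, a spindle gene of the list, was among the genes that led cluster 8 although it was left out of the clustering. It is also 1 of the 21 genes of the call, so a cell with Ckap2l needed fewer others to be counted. The shares without Ckap2l were not computed.

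At least 2 mitotic genes were held by a larger share of T cells than of microglia in each of the 4 libraries. The share was 4.24%, 3.33%, 3.37% and 2.51% (14, 23, 13 and 6 cells), against at most 1.30% in microglia. Exactly 1 mitotic gene was also held by more T cells, 18.6% against 8.17% of microglia, pooled over libraries. The part of that unequal level in the shares was not tested. Anti-CD8 T cells averaged 2.94 ± 0.606% and IgG T cells 3.79 ± 0.643% (SD, n = 2); the 2 groups overlapped, and the two-sided exact permutation p was 0.667, where 4 libraries allow none below 0.333. The difference turned to 0.254 percentage points higher in anti-CD8 with the cell cycle genes kept in the clustering, and to 0.0519 higher at a finer clustering (resolution 2). Under these clusterings 1563 and 990 cells were named T cells, against 1738. With at least 3 genes the share was 2.12%, 1.30%, 1.04% and 0.837%, from 7, 9, 4 and 2 cells, and here the groups did not overlap. Pooled over libraries, 1.34% of T cells and 0.705% of microglia held at least 3. In anti-CD8 replicate 2, with 2 such T cells, the T-cell share was only slightly above that of microglia. Of 56 T cells with 2 or more mitotic genes 34 had exactly 2, so the difference between the rules rests on few cells. The T cells fell into a cluster led by αβ and CD8 genes (1471 cells) and one led by Trdc and Il17a, genes of γδ T cells (267 cells); of the 22 T cells with at least 3 mitotic genes, 21 were in the first. The γδ cluster made up 6.36% and 10.1% of the thinned T cells in the IgG and 27.5% and 27.6% in the anti-CD8 libraries. Dividing cells were 2.28% of it and 3.62% of the αβ cluster, and cells with 2 S-phase genes 2.28% and 6.95%. Within the αβ cluster alone the mitotic shares were 4.53%, 3.39%, 3.57% and 2.89%, where the groups again overlapped.

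Dividing T cells were also split by whether they carried a CD8 UMI. A Cd8a or Cd8b1 UMI was present in 242 of 330, 416 of 690, 119 of 386 and 62 of 239 of the thinned T cells. At least 3 mitotic genes were found in 6, 6, 1 and 0 of the cells with a CD8 UMI, which is 2.48%, 1.44%, 0.840% and 0%; for the last, 0 of 62 cells allows up to 4.84%. Among T cells without a CD8 UMI the counts were 1, 3, 3 and 2, or 1.14%, 1.09%, 1.12% and 1.13%. The shares without CD8 lay close together but rest on 1 to 3 cells a library, too few to show that they were alike. Their exact binomial intervals ran up to 6.17%, 3.17%, 3.25% and 4.02%. Shares below the floor of 3 cells were those without CD8 in IgG replicate 1 (floor 3.41%) and anti-CD8 replicate 2 (1.69%). Those with CD8 in both anti-CD8 libraries were also below it (2.52% and 4.84%). The share with CD8 was higher in both IgG than in both anti-CD8 libraries, but the intervals overlapped. With at least 2 genes cells with CD8 gave 4.96%, 3.37%, 0.840% and 3.23%, where IgG replicate 2 and anti-CD8 replicate 2 lay close together. The 2 anti-CD8 values come from 1 and 2 cells. Cells without CD8 gave 2.27%, 3.28%, 4.49% and 2.26%, where the groups overlapped. The difference between CD8-bearing and other T cells was not tested.

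Among the other classes, Spp1-high myeloid cells carried mitotic genes in 0.674%, 0.316%, 1.03% and 1.26% of cells (7, 3, 12 and 15 cells). Both anti-CD8 libraries lay above both IgG libraries, by 0.651 percentage points on average, with the exact permutation p at its floor of 0.333. With at least 3 genes they stayed in that order, at 0.385%, 0.316%, 0.685% and 0.759%. Cluster 10 reached 4.93%, 1.79%, 2.30% and 2.45%, with the highest value in 1 IgG library only. Monocyte/macrophage cells gave 0%, 0.969%, 1.14% and 0.569%, where no cell among 276 in IgG replicate 1 allows up to 1.09%; the difference of the means, anti-CD8 minus IgG, was 0.371 percentage points, and -0.113 without IgG replicate 1. Endothelial cells gave 0.302%, 0.862%, 0.176% and 0.238%, and none of 1666 held 3 mitotic genes. Ependymal cells gave 0.633%, 0.680%, 1.36% and 2.17%, from 1, 1, 4 and 4 cells.

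Neurons served as the class that should lack these genes: 0 of 480 thinned neurons held 2 mitotic genes, which allows up to 3.41%, 1.88%, 2.56% and 2.61% in the 4 libraries. Their depth before thinning, a median of 22953.5 UMIs, was above the 19198 of microglia. Without thinning, 2 different mitotic genes were found in 8.79%, 8.33%, 10.1% and 8.90% of neurons, and in 15.3%, 15.9%, 12.3% and 16.8% of microglia, 18.3%, 16.2%, 12.3% and 12.4% of T cells and 21.8%, 21.7%, 18.9% and 21.2% of Spp1-high cells. With that level in neurons, the unthinned shares are not read further. The plot of mitotic shares by class shows both thinned rules.

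**Figure D1:**
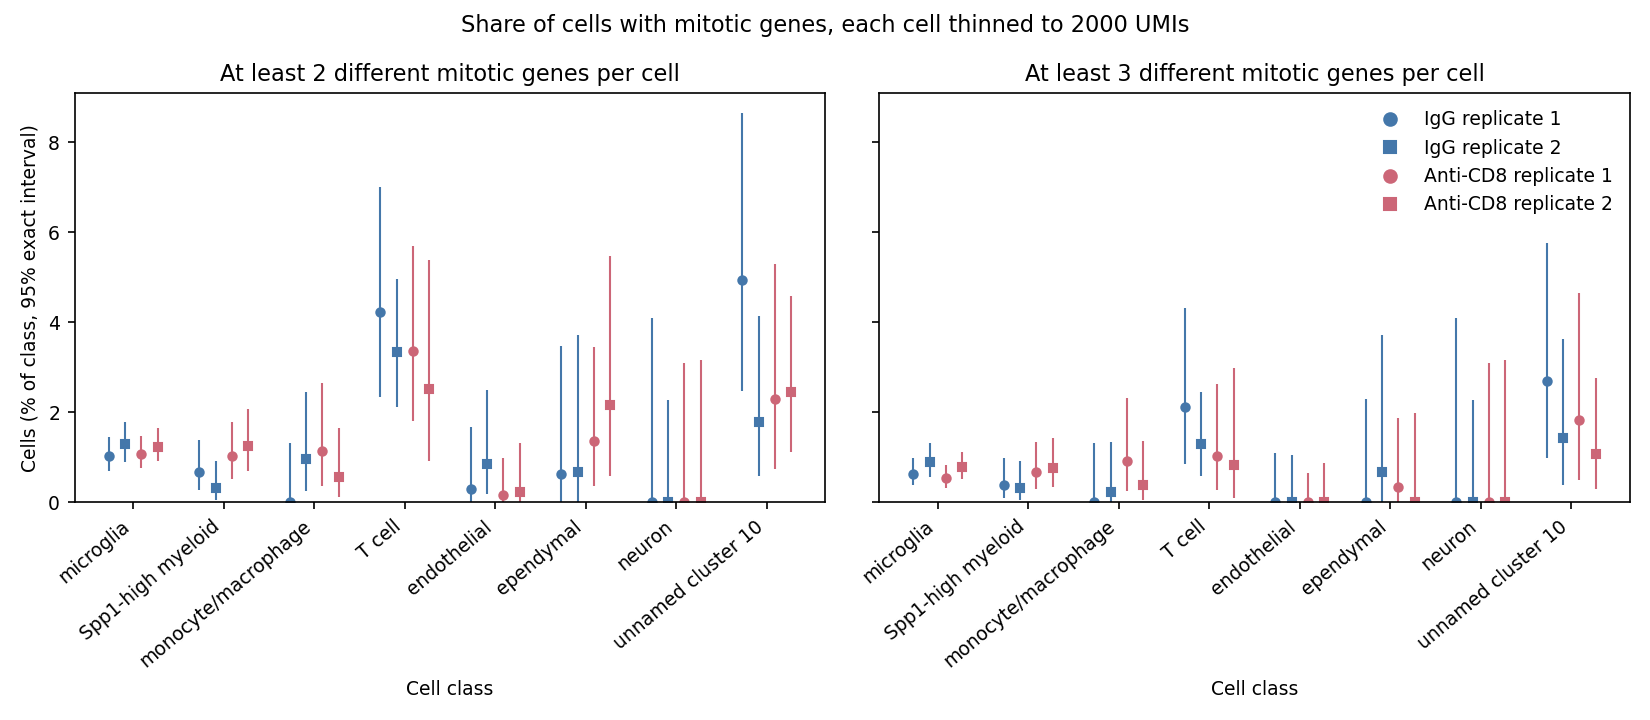
Share of cells (y axis, % of the class) with at least 2 (left) or at least 3 (right) different mitotic genes, each cell thinned to 2000 UMIs, by cell class (x axis) in each of the 4 libraries (blue IgG, red anti-CD8; circle replicate 1, square replicate 2), with exact 95% binomial intervals. T cells and cluster 10 lie highest, microglia sit near 1% in every library, and neurons are at 0.

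Cells with at least 2 S-phase genes were more common than cells with at least 2 mitotic genes, and again most common in T cells. Single S-phase genes were common too: 18.5% of microglia and 29.0% of T cells held exactly 1, pooled over libraries. How many cells would hold 2 by these levels alone was not tested. At least 2 of the 10 S-phase genes were held by 6.97%, 6.81%, 4.15% and 6.69% of T cells, 2.18%, 2.89%, 2.39% and 2.21% of microglia and 2.60%, 2.00%, 3.08% and 2.19% of Spp1-high cells. Neurons gave 0%, 1.25%, 0% and 0%, from 2 cells. In T cells the IgG mean was 6.89 ± 0.112% and the anti-CD8 mean 5.42 ± 1.80% (SD, n = 2), with an exact permutation p of 0.333. The groups did not overlap, but anti-CD8 replicate 2 lay next to the IgG libraries and the gap came from replicate 1. At clustering resolution 2 the anti-CD8 mean was 0.989 percentage points higher. With at least 3 S-phase genes microglia gave 0.481%, 0.444%, 0.256% and 0.162%, with both IgG libraries higher. Without thinning, 2 S-phase genes were present in 43.3% to 52.2% of microglia and in 21.2% to 32.8% of neurons.

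The number of different genes per cell separates a small set of cells that carried many of them. Among 13042 microglia, 1065 held exactly 1 mitotic gene, 59 held 2, 92 held 3 or more and 10 held 10 or more. Among 480 neurons 21 held 1 and none held more. Among 1645 T cells 306 held 1, 34 held 2 and 22 held 3 or more, with 13 cells at 6 or more. The long tail in microglia and T cells, and its absence in neurons, is what the rule of at least 3 genes picks out.

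**Figure D2:**
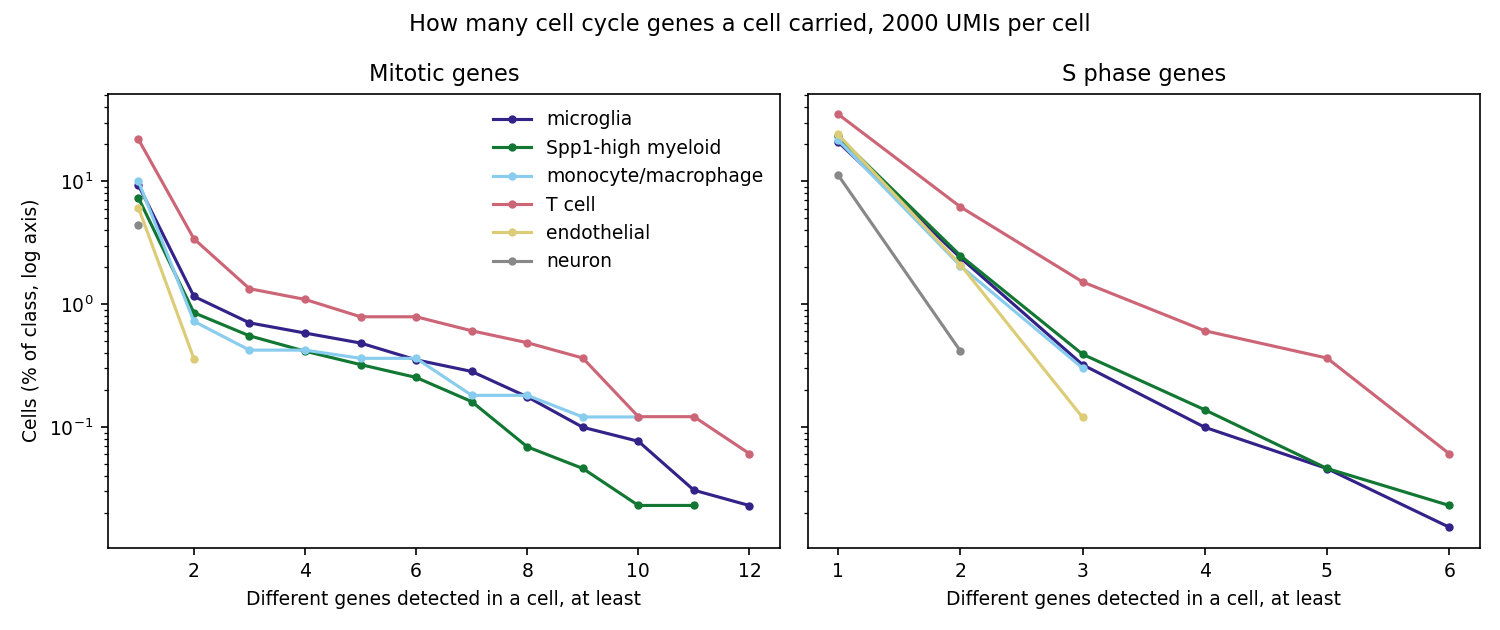
Share of cells (y axis, % of the class, log axis) that held at least a given number of different mitotic genes (left) or S-phase genes (right), x axis, after thinning to 2000 UMIs, pooled over the 4 libraries for 6 classes (coloured lines). Neurons stop at 1 mitotic gene, while microglia and T cells reach 12.

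Mitotic and S-phase genes met in the same cells. Of 92 microglia with at least 3 mitotic genes, 29.3% also held at least 2 S-phase genes, against 2.20% of the other microglia. In T cells the shares were 63.6% of 22 and 5.42%, and in Spp1-high cells 41.7% of 24 and 2.27%. Depth before thinning moved with the call: the median was 35391 UMIs in those microglia and 19198.5 in the rest, and 17708 against 6797 in T cells. The part of depth in the call was not tested. Among the barcodes removed as doublets, 0, 3, 2 and 2 held at least 3 mitotic genes, or 0%, 0.890%, 0.414% and 0.374%.

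For most mitotic genes, the 92 microglia with at least 3 mitotic genes supplied the larger share of the molecules of the class. These cells are 0.705% of the microglia and 1.23% of their UMIs, yet they held 89.8% of the microglial UMIs of Ccna2, 87.1% of Cenpf, 83.2% of Plk1, 81.9% of Ube2c, 81.4% of Birc5 and 74.7% of Top2a. Mki67 was less confined, at 53.1%, Cdk1 at 37.9% and the centromere histone Cenpa at 17.6%. Those values describe the call, which was made with these genes. The S-phase genes and Stmn1 did not enter it: H1f5 (76.8%) and Rrm2 (71.7%) lay with the mitotic genes, Stmn1 had 43.4%, and Pcna (3.34%) and Mcm3 (4.11%) were spread over the other microglia.

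Ckap2l stood apart among the mitotic genes, with 9.18% of its microglial UMIs in these 92 cells. In microglia it measured 11, 18.1, 16.5 and 27.5 CPM. In the mouse gene annotation the next coding gene upstream of it on the same strand is Il1a, the gene of the cytokine interleukin-1α, which measured 367, 503, 489 and 592 CPM in the same cells. Both were lowest in IgG replicate 1 and highest in anti-CD8 replicate 2. Whether reads past the end of Il1a were counted for Ckap2l was not tested. In T cells, where Il1a measured 12.5, 9.17, 28.0 and 15.4 CPM, 77.6% of the Ckap2l UMIs lay in the 22 cells with at least 3 mitotic genes.

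**Figure D3:**
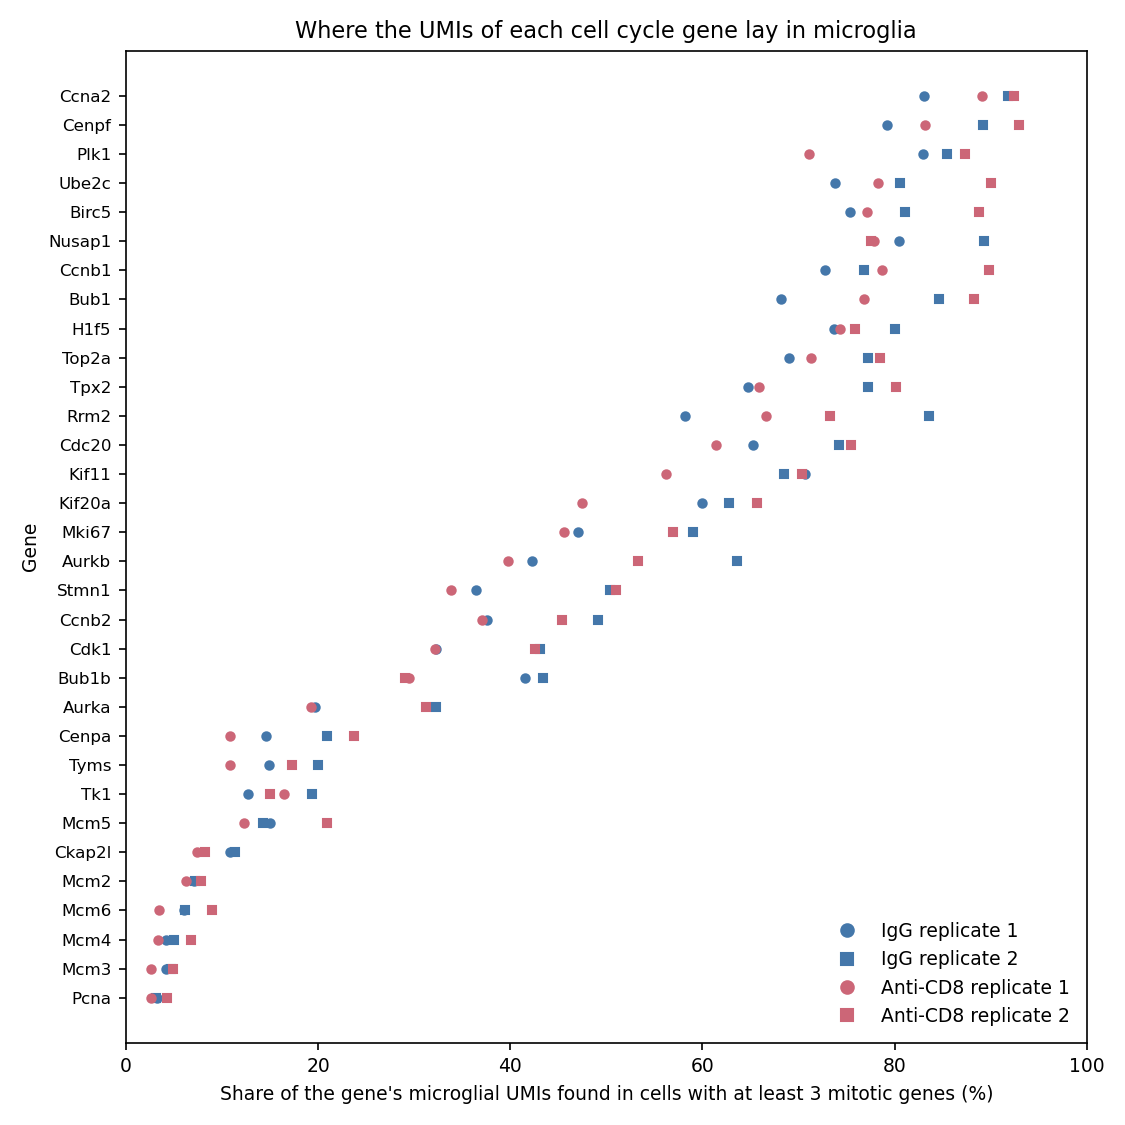
For each of the 32 genes (y axis), the share of its microglial UMIs that lay in microglia with at least 3 mitotic genes (x axis, %), 1 point per library (blue IgG, red anti-CD8; circle replicate 1, square replicate 2). Ccna2 and Cenpf are near the top of the range, H1f5 and Rrm2 lie among the mitotic genes, and Pcna, Mcm3 and Ckap2l are near the bottom.

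No member passed the test of anti-CD8 against IgG in any class. The UMIs of each class were added up within a library, and edgeR's quasi-likelihood test was run over all genes, with an adjusted p under 0.05 as the call. Of the members, 32 could be tested in microglia, Spp1-high cells and cluster 10, 27 in T cells, 24 in monocyte/macrophage cells and 7 to 15 in the other 7 classes fitted. The count called was 0 in all 12 classes, where the test called 0% of all genes in microglia and Spp1-high cells, 0.467% in T cells, 0.00806% in monocyte/macrophage cells, 0.00795% in cluster 10, 0.00804% in pericytes and smooth muscle, 0.00701% in ependymal cells and 0.645% in neurons. At an unadjusted p under 0.05 there were 6 members, all lower, in T cells (11.5% of all genes were under it), 3, all lower, in microglia (8.89%), 6, all higher, in Spp1-high cells (7.45%), 9, all higher, in monocyte/macrophage cells (5.24%) and 6, all lower, in cluster 10 (6.58%). The 3 of 32 in microglia are thus near the share of all genes. DESeq2 called 1 member in T cells, of 98 genes called, and 1 in microglia, of 96, H1f5 in both. In T cells the fit called 49 genes in all, none a member. Leaving out IgG replicate 2 gave 5 members among 452 genes called, leaving out anti-CD8 replicate 2 gave 4 among 52, leaving out IgG replicate 1 gave 1 among 313, and dropping the filter on low counts gave 9 among 608.

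In T cells the members leaned lower with the antibody, led by anti-CD8 replicate 1. Of the 27 tested, 25 had a log2 fold change below 0. The median was -0.80 for 16 mitotic genes and -0.26 for 10 S-phase genes, against -0.01 for all 10492 genes tested, of which 48.3% were above 0. Ccnb1, Aurka, Aurkb, Bub1 and Kif20a were left out by the filter on low counts. The 22 T cells with at least 3 mitotic genes held 96.1% of the T-cell UMIs of Birc5, 70.7% of Mki67 and 11.7% of Cenpa. Members carried by the same few cells can move together, so counts of members are not counts of separate observations. Without anti-CD8 replicate 1 the mitotic median was -0.23, and without anti-CD8 replicate 2 it was -1.60. It was -0.05 when the cell cycle genes were kept in the clustering and -0.27 at a finer clustering, so it changed with the library left out and with which cells are called T cells. Without the cells that held mitotic or S-phase genes it was 0.11. Those cells were taken out by the same genes, so this alternative is no test of the lean, here or below. The last alternatives tested 16, 21 and 15 members, against 27, so the medians cover unlike genes. In the αβ cluster alone, a fit added after the γδ share was seen, the mitotic median was -1.14 and no member was called.

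Of the mitotic genes in T cells, 15 of 16 tested were below 0, and Ckap2l was above (0.34). Mki67 measured 62.2, 40.7, 18 and 52.9 CPM, a log2 fold change of -0.59 ± 0.41 (SE), which was -1.14 in the αβ cluster alone. Top2a measured 92.5, 57.3, 34.4 and 65.0 CPM, or -0.62 ± 0.31. Cdk1 measured 13.6, 10.7, 4.40 and 9.92 CPM, or -0.82 ± 0.41. In each of these 3 genes anti-CD8 replicate 1 was lowest, and replicate 2 lay within or next to the IgG range. Birc5, the survivin of the chromosomal passenger complex, did not overlap between groups, at 19.7, 14.9, 1.60 and 9.92 CPM (-1.70 ± 0.56, adjusted p = 0.266 in edgeR). Where nothing differs, 2 libraries against 2 still fail to overlap with a probability of 0.333. Groups that do not overlap, above and below, are therefore description only, and the share over all genes was not counted. Ccnb1, which was too low to test, had 8, 12, 5 and 5 UMIs. Ccnb2 and Ube2c were listed at 0 UMIs in anti-CD8 replicate 1, with 22, 38 and 7 and 58, 83 and 22 UMIs in the other libraries, and Plk1 had 11, 21, 0 and 1, low in both anti-CD8 libraries.

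The S-phase genes of T cells other than H1f5 had folds between -0.36 and 0.15. Pcna measured 108, 97.7, 76.8 and 94.3 CPM (-0.29 ± 0.14) and Mcm5 13.6, 12, 8 and 14.3 (-0.25 ± 0.33). Mcm2 measured 12.1, 10.7, 12.8 and 12.7 CPM, Tyms 15.5, 18, 12.8 and 18.7, and Rrm2 10.6, 9.94, 8 and 8.27 (-0.35 ± 0.31). Pcna and Rrm2, lower with anti-CD8, and Mcm2, higher, did not overlap between the groups, while Mcm5 and Tyms did. Stmn1 measured 99.0, 62.7, 35.2 and 70.0 CPM (-0.65 ± 0.32), with the same low library as the mitotic genes. Stmn1 was also present where mitotic genes were not: neurons had 602, 725, 730 and 518 CPM of it, and endothelial cells 126, 112, 117 and 109. The adjusted p of the members in T cells ran from 0.0808 to 0.947 (edgeR).

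H1f5 gave the smallest p in T cells, although the fitted folds of Plk1 (-3.93) and Ccnb2 (-2.20) were larger. It measured 60.3, 37.3, 8.40 and 19.3 CPM (159, 195, 21 and 35 UMIs), so the groups did not overlap. The log2 fold change was -1.87 ± 0.37 (SE), with an edgeR adjusted p of 0.0808. DESeq2 gave 0.00212 and the fit with the replicate block 0.0292, while leaving out anti-CD8 replicate 1 gave 0.292. The fold was -1.10 at clustering resolution 2 (adjusted p = 0.993 in edgeR) and -1.10 without the cells with mitotic or S-phase genes (0.369). The share of its T-cell UMIs in cells with at least 3 mitotic genes was 81.8%, 31.8%, 0% and 57.1%. In the remaining T cells H1f5 measured 11.8, 26.4, 8.72 and 8.70 CPM. Immediate early genes, which dissociation is known to raise, moved with the antibody in these cells: 9 of 9 were above 0, 3 were called (edgeR) and the median was 0.63; their part in the members' values was not tested.

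H1f5 also led in microglia, in the same direction, and in Spp1-high cells, in the other. In microglia it measured 2.37, 3.83, 1.25 and 1.13 CPM (-1.43 ± 0.25, adjusted p = 0.281 in edgeR and 0.000529 in DESeq2). In Spp1-high cells it measured 1.44, 0.760, 4.32 and 3.82 CPM (1.83 ± 0.26, adjusted p = 0.121 in edgeR, with no DESeq2 adjusted p). Neither pair of groups overlapped. In microglia with at least 3 mitotic genes alone H1f5 was at 174, 214, 103 and 54.1 CPM, and in such Spp1-high cells at 140, 86.2, 305 and 301. Whether the 2 classes differ in this was not tested. Once cells with mitotic or S-phase genes were taken out, the log2 fold change was -1.44 in microglia and 0.51 in Spp1-high cells. With the cell cycle genes kept in the clustering the fold was -0.52 in microglia and 0.96 in Spp1-high cells. Other replication histones are known to be made with H1f5: in microglia 16 of 19 tested were lower and 9 had an unadjusted p under 0.05 (8.89% of all genes), H2ac8 (-0.83 ± 0.10, adjusted p = 0.133 in edgeR) and H2ac24 (-0.77 ± 0.14) first, with a median of -0.25. In Spp1-high cells they did not go with H1f5: 10 of 18 were lower, the median was -0.07, and the 2 with an unadjusted p under 0.05, H4c9 (-0.37) and H4c8 (-0.38), were below 0.

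The other members differed little between the groups in microglia. Mki67 measured 11, 17, 13 and 16.7 CPM (0.04 ± 0.20), Top2a 8.66, 13.4, 9.63 and 12.3 (-0.06 ± 0.20) and Birc5 4.14, 5.24, 3.49 and 5.21 (-0.16 ± 0.21). Ccnb1 measured 1.09, 1.58, 1.17 and 1.61 CPM and Stmn1 29.1, 34.3, 31.7 and 33.6. In these genes replicate 1 of each group was lower than replicate 2, and the groups overlapped. Cdk1, at 8.29, 8.82, 6.13 and 7.76 CPM (-0.35 ± 0.12), and Mcm5, at 4.44, 4.27, 3.44 and 3.58 (-0.37 ± 0.11), did not overlap, with adjusted p = 0.534 and 0.504 in edgeR. Pcna measured 66.1, 67.1, 64.8 and 68.3 CPM, Mcm2 3.25, 3.32, 2.50 and 3.13, Tyms 6.19, 5.77, 5.05 and 5.92 and Rrm2 0.780, 1.26, 0.954 and 0.967. The median log2 fold change was -0.02 for the mitotic and -0.16 for the S-phase genes, against -0.0007 for all 18078 genes. Ckap2l had the smallest p among those above 0 (0.55 ± 0.28, adjusted p = 0.58 in edgeR).

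In Spp1-high cells 22 of 32 members were above 0, where 50.04% of all genes were. Mki67 measured 11.5, 8.39, 13.6 and 13.5 CPM (0.40 ± 0.14), and Rrm2 0.676, 0.334, 1.24 and 1.41 (1.33 ± 0.34, adjusted p = 0.544 in edgeR); neither overlapped between groups. Top2a measured 7.35, 3.86, 7.19 and 7.75 CPM, Cdk1 7.74, 6.29, 8.11 and 8.38, Birc5 3.86, 2.04, 2.72 and 4.36 and Stmn1 29.6, 20.6, 29.9 and 33.0. In these IgG replicate 2 was the lowest library. Ccnb1 measured 0.732, 0.456, 0.503 and 0.542 CPM, Mcm2 3.35, 3.46, 3.61 and 2.66, Mcm5 3.69, 3.19, 4.17 and 3.61 and Tyms 7.46, 6.20, 7.25 and 7.21. Pcna, at 92.8, 85.1, 86.3 and 81.0 CPM (-0.14 ± 0.06), had the smallest p among the members below 0. Medians were 0.18 for mitotic and 0.14 for S-phase genes, against 0.0002 over 15511 genes. The mitotic median turned to -0.0612 without IgG replicate 2, to -0.0907 without anti-CD8 replicate 2 and to -0.00911 without the cells with mitotic or S-phase genes.

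**Figure D4:**
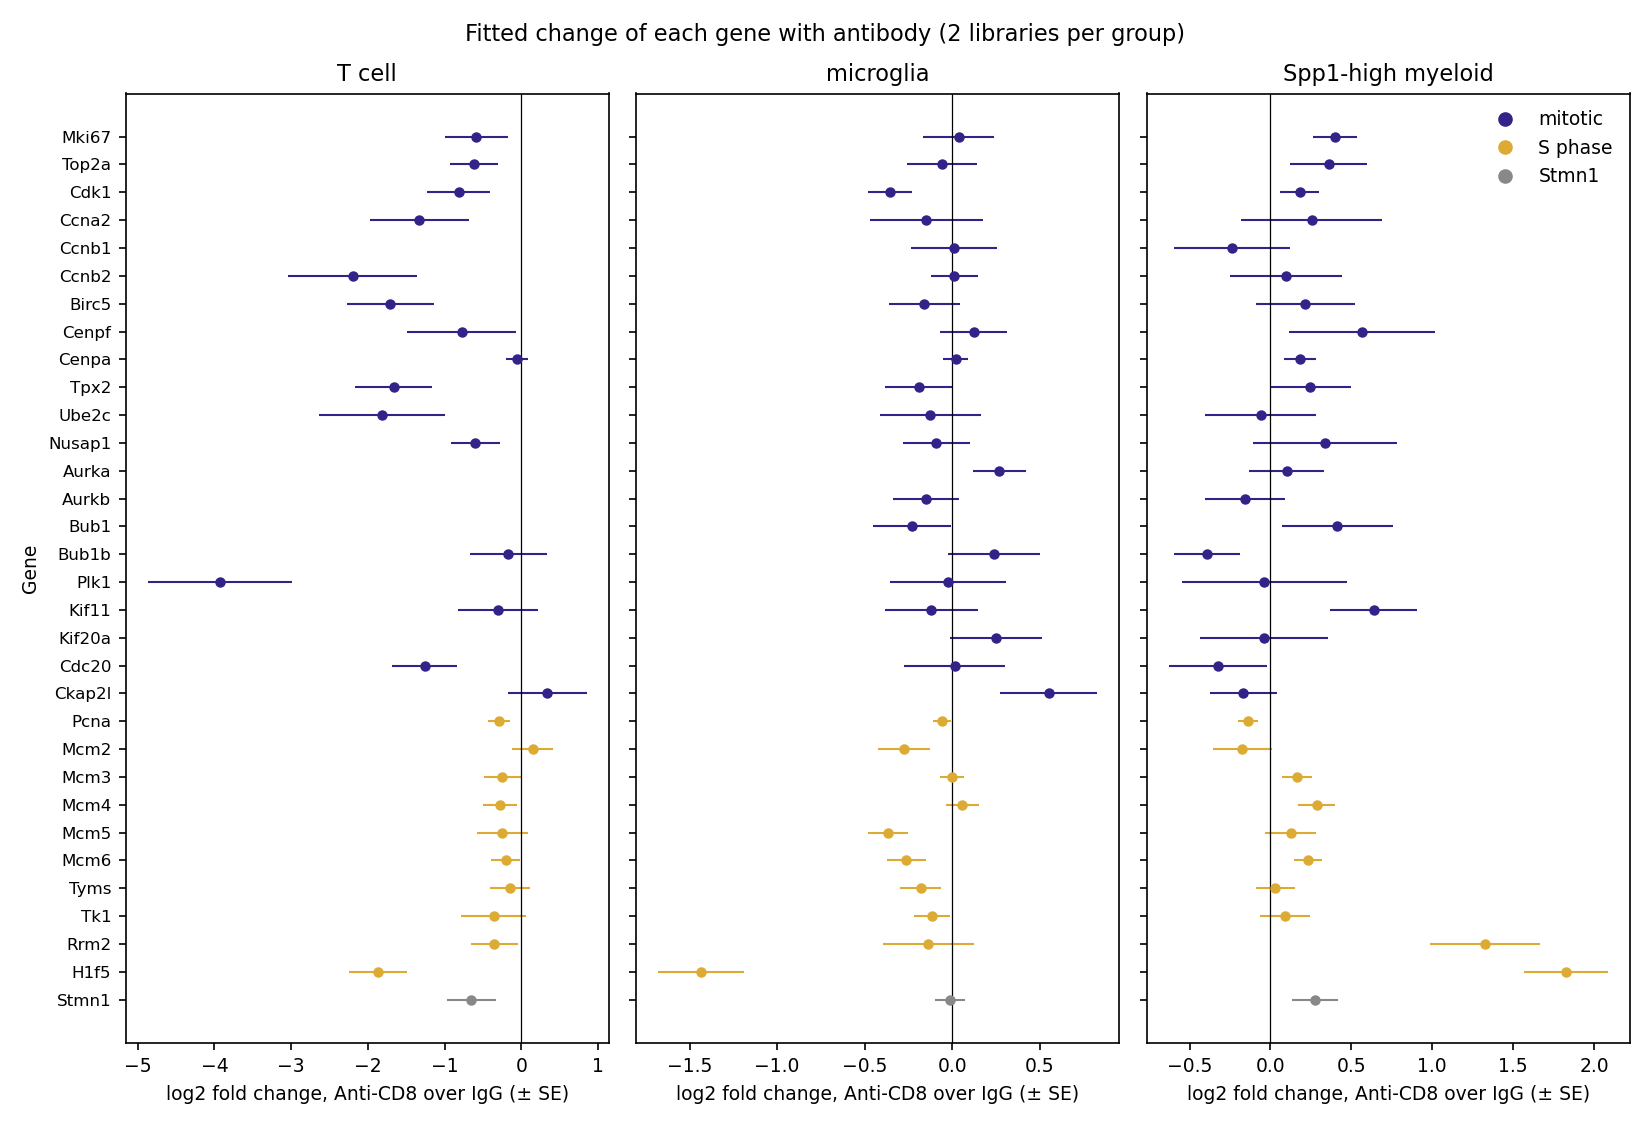
Fitted log2 fold change of each gene, anti-CD8 over IgG (x axis, ± SE), in T cells, microglia and Spp1-high myeloid cells, with 2 libraries per group; colours mark mitotic genes, S-phase genes and Stmn1, and genes too low to test have no point. H1f5 lies lowest but for Plk1 and Ccnb2 in T cells, lowest in microglia and highest in Spp1-high cells.

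In the classes with fewer cells, all 14 mitotic genes tested in monocyte/macrophage cells were above 0, with a median of 1.12; Mki67 (1.37 ± 0.35, adjusted p = 0.949 in edgeR) had the smallest p. The median was 0.38 without anti-CD8 replicate 1, 0.43 with the cell cycle genes kept in the clustering and 0.08 without the cells that held mitotic or S-phase genes, and 4, 5 and 3 cells carried the share above in the last 3 libraries. In cluster 10 Cdk1 (-0.62 ± 0.16, adjusted p = 0.436 in edgeR) led the members below 0. In the other classes the members with the smallest p in each direction were Rrm2 (0.94) and Tpx2 (-0.57) in endothelial cells, Tpx2 (0.49) and Stmn1 (-0.32) in pericytes and smooth muscle, Top2a (0.71) and Mcm2 (-0.99) in ependymal cells and Mcm6 (0.66) and Stmn1 (-0.12) in neurons. The smallest of their adjusted p was 0.687 (edgeR). In cluster 10 the other end was Ccnb2 (0.09), in cluster 11 the ends were Mcm3 (0.15) and Cdk1 (-0.79), in cluster 21 Pcna (0.63) and Cenpf (-1.5) and in cluster 22 Top2a (2.45 ± 0.75, adjusted p = 0.837 in edgeR) and Mcm3 (-0.89).

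Whether the antibody effect differed between T cells and microglia was tested for each gene in 1 fit over both classes, with the library as a block. No member passed (0 of 32), where 0.745% of all 18664 genes did, and DESeq2 called none either; 7 passed without IgG replicate 2 and 6 without anti-CD8 replicate 2. At an unadjusted p under 0.05 there were 11 members, all lower in T cells relative to microglia, where 7.17% of all genes were under it. On that side were 30 of 32 members, with a median of -0.50 against -0.04 for all genes. Members carried by the same few cells are not separate observations here either. Birc5 (-1.61 ± 0.46, adjusted p = 0.129), Ccnb2 (-2.30 ± 0.66, 0.135) and Plk1 (0.151), all in edgeR, came closest. The lean in T cells is therefore not shown to differ from microglia for any member.

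**Figure D5:**
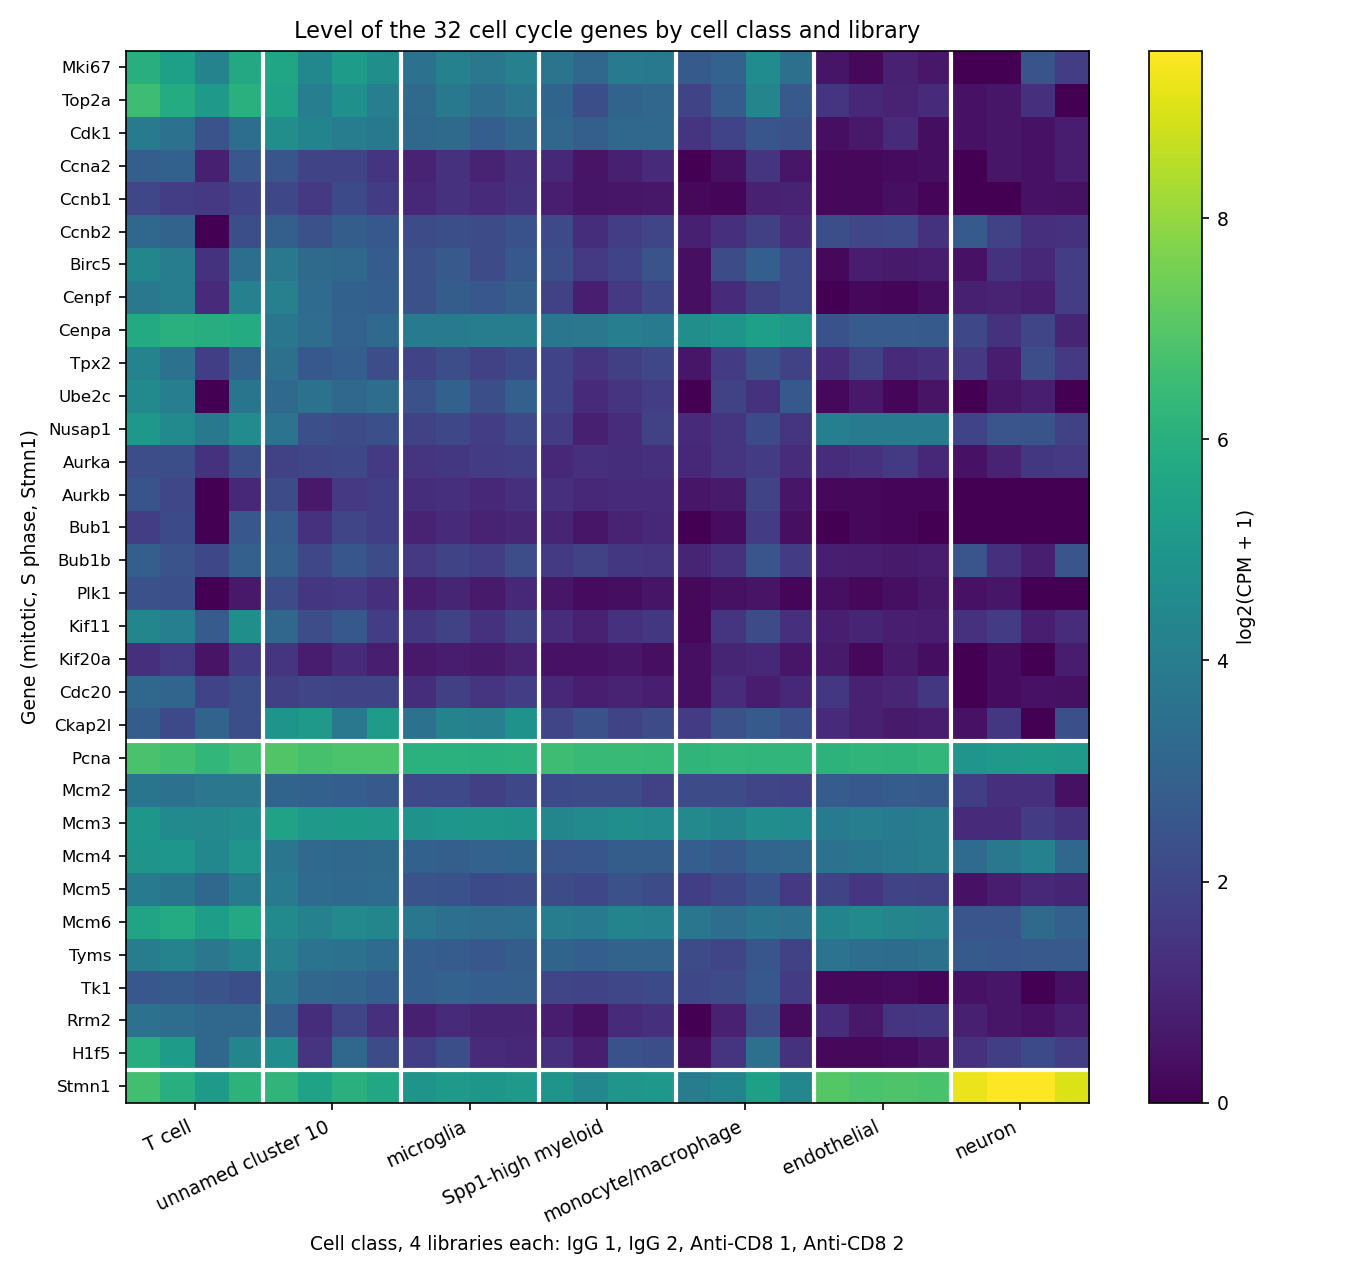
Level of the 32 genes (rows: mitotic, S phase, Stmn1) as log2(CPM + 1) in 7 cell classes, with 4 columns per class in the order IgG 1, IgG 2, anti-CD8 1, anti-CD8 2. Mki67, Top2a and H1f5 are brighter in both IgG T-cell columns than in microglia or Spp1-high cells, and darker in anti-CD8 replicate 1 than in the other T-cell columns; Stmn1 is brightest in neurons.

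Other cell cycle genes, from lists drawn up beside the members, also leaned lower in T cells. In which T cells their UMIs lay was not counted, so they are no evidence apart from the members. Of 35 further mitotic genes tested 32 were lower and 14 had an unadjusted p under 0.05 (11.5% of all genes), none passing, with a median of -0.62; Racgap1 (-0.87 ± 0.18, adjusted p = 0.0874 in edgeR), Cks2 (-0.69), Cep55 (-2.69) and Mad2l1 (-1.23) had the smallest p. Of 34 replication genes 25 were lower, with Rpa2 (-0.73 ± 0.16, adjusted p = 0.113 in edgeR), Dut, Hells and Gmnn first and a median of -0.38. Of 16 replication histones 12 were lower, led by H2ac24 (-1.46 ± 0.30, adjusted p = 0.0833 in edgeR). The cycle control list, cyclins D and E, E2F factors and inhibitors, had 18 of 26 lower and a median of -0.10; the anti-proliferative genes Btg2 (0.39) and Cdkn2d (0.42) were among its 3 with an unadjusted p under 0.05 above 0, and Lin9 (-0.74) and Rbl1 (-0.73) below.

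The dividing microglia (at least 2 mitotic genes) were then compared with microglia that held neither mitotic nor S-phase genes, within each library, on genes the call had not used. The 32 to 46 dividing cells per library held 939465 to 1465674 UMIs. The test called 10.2% of 16891 genes higher and 12.6% lower. The wider division programme was higher: 45 of 46 further mitotic genes (median 5.89), 40 of 40 replication genes (2.93) and 22 of 22 replication histones (3.59) were called higher. Pttg1, the securin gene, was called lower (-0.46), a call that ended with library totals as the scale. Of 33 cycle control genes 19 were higher, among them the inhibitor Cdkn2c, at 78.3, 108, 71.3 and 70.3 CPM in dividing microglia and 7.31, 7.04, 7.30 and 6.83 in the rest, E2f8, Foxm1 and Rbl1. The cyclin Ccnd3 (-0.72), Btg1 and Btg2 were called lower, and so were the cyclin Ccnd2 (-1.5) and Rb1, whose calls also ended with library totals.

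Genes of antigen presentation and of the activated, lipid-handling microglial state were lower in the dividing microglia than in the others. Of 5 MHC class II genes 4 were lower and none higher (median -1.77): H2-Aa measured 0.900, 4.37, 6.39 and 2.73 CPM in dividing and 16.7, 31.3, 14.5 and 25.7 in other microglia. The dividing cells held only 1111582, 1142861, 939465 and 1465674 UMIs of all genes, so their H2-Aa values rest on few UMIs. Of 15 activated microglia genes 10 were lower, with Spp1 at 763, 761, 922 and 1769 against 1913, 2373, 1998 and 2261 CPM and Apoe at 36652, 25430, 31515 and 40608 against 65456, 65718, 64678 and 58474; Ank and Lpl were higher. Of 12 type I interferon genes 7 were lower, Ifit3, Rsad2 and Ifit1 among them; in the other microglia Ifit3 measured 96.7 CPM in IgG replicate 1 and 10.7 to 13.9 in the other 3 libraries. By contrast Ifi27l2a was higher in 4 of 4 libraries, at 952, 747, 661 and 532 against 257, 143, 102 and 177 CPM. Of 12 homeostatic genes 3 were higher (Olfml3, Selplg and Fcrls) and 2 lower (P2ry13 and Cx3cr1). The dividing cells were not spread over the clusters as the others were: cluster 8 held 27.8% of them and 10.4% of all microglia. Ckap2l led cluster 8 and counts in the call, and its part in that share was not tested. Without cluster 8, a fit added after its share was seen, 4 MHC class II, 10 activated and 6 interferon genes were lower. Of all genes, 8.09% were called higher and 10.6% lower in that fit. The part of the other clusters was not tested.

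The scale changed that comparison: with TMM, edgeR's scaling, the median of all genes was -0.06, and with library totals it was 0.16. With library totals the calls were 2783 higher and 770 lower, a share of 78.3% higher against 44.7% with TMM. MHC class II (4 lower), activated (9 lower, 2 higher) and interferon genes (5 lower, 1 higher) kept their direction, while the homeostatic list went to 7 higher and none lower and 9 immediate early genes from 5 lower to 1 lower and 3 higher. The fit also took its spread from all genes alone, so its errors are too small for genes that vary between libraries, such as Gpnmb (263, 29.7, 63.9 and 155 against 251, 193, 211 and 253 CPM). A fit with bias-adjusted deviances called 1681 genes higher and 1893 lower, with MHC class II (4 lower) and activated genes (10 lower) as before and 6 interferon genes lower. Lower in 4 of 4 libraries were 3 MHC class II, 6 activated and 4 interferon genes, against 11.1% of all genes.

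Over 48 sums of 12 classes and 4 libraries, the genes outside the list whose level was most like the mean of the mitotic members were Pclaf (Pearson r = 0.83), H2ac24 (0.75), Cks1b (0.72), Fen1 (0.70), Phgdh, Incenp, Klk8, H2ac8, AI506816 and Prc1 (0.66). For the S-phase members they were Hmgb2 (0.83), Pclaf (0.79), AI506816 (0.79), Ddx21, Emg1, Cbfb, Rfc4, Anp32b, Lockd and Pole4 (0.74). Pclaf, a partner of Pcna, and AI506816 were on both lists. The sums of a library share its depth, and the sums of a class its cell type, so these r describe likeness in these data only.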

How the data were processed

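Single-cell RNA-seq (10x 3′ chemistry) was measured in 4 libraries. Per the submitters' processing notes, Cell Ranger 7.1.0 and the build GRCm39 were used; the values deposited by the authors are UMI counts for every gene in every barcode, not normalized. Barcodes under 300 genes or over 20% mitochondrial UMIs were dropped, and doublets were called with Scrublet and removed. Cells were clustered (scanpy 1.11.5, Leiden resolution 1, 3000 variable genes, 30 components) without cell cycle, CD8, T-cell receptor, immunoglobulin and sex genes. Clusters were named from marker genes; the naming thresholds were set and revised after the clusters, their leading genes and their mitotic shares had been seen, and before any antibody fold change was computed.

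Shares were taken after thinning cells to 2000 UMIs, with exact binomial 95% intervals and exact two-sided permutation tests over libraries. Floors are 3 counts of the total. Summed counts were tested with edgeR 4.0.16 (quasi-likelihood, TMM, filter on low counts, Benjamini-Hochberg adjustment over all genes), and DESeq2 1.42.0 served as an alternative. The scripts were tested on simulated data. The members and lists were chosen with earlier results of these data known. Named in full were 12 members in T cells, microglia and Spp1-high cells and, per class, the member with the smallest p in each direction; from each other list up to 4 genes with the smallest p. Chosen after their values were seen were Ube2c, Plk1 and Ccnb2 in T cells, and Il1a, Apoe, Ank, Lpl, Cx3cr1, Pttg1, Ccnd2, Ccnd3, Btg1, Btg2 and Rb1. The fits with bias-adjusted deviances, without TMM or cluster 8 for dividing microglia, and in the αβ T-cell cluster alone were added after seeing the data.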

Additional observations from a re-analysis of the deposited data

How the results depend on the processing

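Of 140 alternative values for the differences in share, 117 kept their direction. Among the 140 was, for each of the 10 differences, the mean of the differences within replicate numbers. It equals the main difference by construction, so its direction was fixed. Of 771 alternative values for the fold changes and medians named, 678 kept direction and side of the threshold, 68 changed sign and 25 passed it. No member was called to begin with. Whether the changes of sign lie within the error was not tested, and neither was their cause. With 1 gene needed the difference in percentage points was 0.854 for the mitotic share in all cells, 2.06 for the mitotic share in microglia, 0.0946 for the S-phase share in microglia, -0.109 for the S-phase share in Spp1-high cells and 1.07 for the S-phase share in T cells. Thinned to 1000 UMIs the difference in percentage points was 0.076 for the mitotic share in all cells. With doublets kept the difference in percentage points was 0.0256 for the mitotic share in microglia. Thinned to 5000 UMIs the difference in percentage points was 0.154 for the mitotic share in microglia. Without thinning the difference in percentage points was -1.66 for the mitotic share in Spp1-high cells, -0.236 for the mitotic share in monocyte/macrophage cells, -2.73 for the S-phase share in Spp1-high cells and -8.14 for the S-phase share in monocyte/macrophage cells. With the cell cycle genes kept in the clustering the difference in percentage points was -0.195 for the mitotic share in monocyte/macrophage cells and 0.254 for the mitotic share in T cells. At clustering resolution 2 the difference in percentage points was 0.0519 for the mitotic share in T cells and 0.989 for the S-phase share in T cells. Alternatives in filter or clustering also changed which cells bore a class name. T cells ran from 990 at resolution 2 to 2000 with doublets kept, against 1738. Spp1-high cells numbered 1350 with a stricter cell filter, against 4350. Microglia numbered 9298 with the cell cycle genes kept in the clustering, against 13198. Such values therefore cover unlike sets of cells. Leaving out 1 library at a time the difference ran from -0.11 to 0.00962 for mitotic share in all cells, from -0.136 to 0.134 for mitotic share in microglia, from -0.113 to 0.855 for mitotic share in monocyte/macrophage cells, from -0.603 to 0.0309 for S-phase share in all cells, from -0.589 to 0.118 for S-phase share in microglia and from -0.11 to 0.78 for S-phase share in Spp1-high cells. With DESeq2 the number of members called was 1 for microglia and 1 for T cells. With no filter on low counts the number of members called was 2 for microglia, 3 for Spp1-high cells, 5 for monocyte/macrophage cells, 9 for T cells, 1 for neurons and 4 for the test of T cells against microglia. At clustering resolution 2 the number of members called was 1 for Spp1-high cells. With the replicate block the number of members called was 1 for T cells. Leaving out 1 library at a time the number called ran from 0 to 1 for microglia, from 0 to 1 for Spp1-high cells, from 0 to 1 for monocyte/macrophage cells, from 0 to 5 for T cells, from 0 to 2 for ependymal cells and from 0 to 7 for the test of T cells against microglia. Without TMM the log2 fold change was 0.0429 for Stmn1 in microglia and 0.032 for the median of mitotic genes in microglia. With doublets kept the log2 fold change was 0.0141 for Stmn1 in microglia, 0.0731 for Top2a in microglia, 0.21 for Rrm2 in microglia, 0.027 for the median of mitotic genes in microglia, -0.096 for Mcm5 in Spp1-high cells and -0.11 for Top2a in ependymal cells. Without the cells with mitotic or S-phase genes the log2 fold change was 0.0634 for Stmn1 in microglia, -0.61 for Ccnb1 in microglia, 0.0905 for the median of mitotic genes in microglia, -0.0631 for Stmn1 in Spp1-high cells, -0.14 for Tyms in Spp1-high cells, -0.16 for Mcm5 in Spp1-high cells, -0.00911 for Cdk1 in Spp1-high cells, -0.55 for Birc5 in Spp1-high cells, -0.00911 for the median of mitotic genes in Spp1-high cells, -0.0145 for the median of S-phase genes in Spp1-high cells, -0.27 for the median of S-phase genes in monocyte/macrophage cells, 0.11 for Rrm2 in T cells and 0.11 for the median of mitotic genes in T cells. With a stricter cell filter the log2 fold change was -0.14 for Mki67 in microglia and -0.14 for Ccnb1 in microglia. With the cell cycle genes kept in the clustering the log2 fold change was -0.11 for Mki67 in microglia, -0.0871 for Ccnb1 in microglia, -0.12 for Tyms in Spp1-high cells, -0.0631 for Mcm5 in Spp1-high cells, -0.20 for Cdk1 in Spp1-high cells, -0.0631 for the median of S-phase genes in Spp1-high cells, -0.34 for the median of S-phase genes in monocyte/macrophage cells and 0.34 for Rrm2 in T cells. At clustering resolution 2 the log2 fold change was -0.0704 for Mki67 in microglia, -0.0222 for Ccnb1 in microglia, -0.0143 for Tyms in Spp1-high cells, 0.16 for Ccnb1 in Spp1-high cells, 0.23 for Tyms in T cells and 0.31 for Mki67 in T cells. Leaving out 1 library at a time the fold change ran from -0.12 to 0.10 for Stmn1 in microglia, from -0.24 to 0.38 for Mki67 in microglia, from -0.33 to 0.28 for Top2a in microglia, from -0.48 to 0.099 for Birc5 in microglia, from -0.44 to 0.24 for Rrm2 in microglia, from -0.24 to 0.29 for Ccnb1 in microglia, from -0.25 to 0.27 for median of mitotic genes in microglia, from -0.0876 to 0.17 for Tyms in Spp1-high cells, from -0.42 to 0.043 for Mcm2 in Spp1-high cells, from -0.0175 to 0.90 for Top2a in Spp1-high cells, from -0.16 to 0.75 for Birc5 in Spp1-high cells, from -0.52 to 0.14 for Ccnb1 in Spp1-high cells, from -0.0907 to 0.64 for median of mitotic genes in Spp1-high cells, from -0.0772 to 0.41 for median of S-phase genes in monocyte/macrophage cells, from -0.23 to 0.78 for Ckap2l in T cells, from -0.42 to 0.13 for Tyms in T cells, from -1.52 to 0.0416 for Mki67 in T cells, from -0.69 to 0.15 for Mcm5 in T cells, from -1.72 to 0.39 for Mcm2 in ependymal cells, from -0.0565 to 2.24 for Top2a in ependymal cells and from -0.36 to 0.0771 for Stmn1 in neurons. Nothing in the labels says that replicate numbers pair the samples: deviations of the libraries numbered 1 correlated at 0.0005 over all cells and from -0.066 in T cells to 0.143 in pericytes and smooth muscle over the named classes, with 0.186, 0.328, 0.496 and 0.0804 in clusters 10, 11, 21 and 22. The replicate block, fitted in the 8 named classes, changed no other member count there. Alternatives were not run for the 4 unnamed clusters. With 2 libraries a group and few dividing cells per class, small differences may have been missed. The part of depth in this was not tested.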
